A study of Homo sapiens with 9 samples.

Results

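Aminoacyl-tRNA synthetases are the enzymes that attach each amino acid to its tRNA, and their genes were examined across 9 RNA sequencing libraries of HEK293, an established human embryonic kidney cell line. The members were taken from a fixed list of gene symbols, and all 36 were found among the 35876 symbols of the count table. Symbols ending in 2 were counted as mitochondrial, which gave 16 mitochondrial and 20 cytosolic members. The libraries formed 3 groups of 3: cells with Cas9 alone (CC_Cas9, here the Cas9 group), with Cas9 and the Cre recombinase (CC_Cas9_Cre, the Cre group) and with Cas9 and the Flpo recombinase (CC_Cas9_Flpo, the Flpo group). All 3 groups thus carried Cas9, a nuclease guided by RNA. Cre recombines DNA at loxP sites and Flpo does so at FRT sites. The prefix CC, also shared by all groups, is not explained in the labels, which name no target gene, inducing chemical, dose, time or clone. Nothing in the labels says that the replicates were separate cultures, so p-values measure only the spread between these samples, which may be technical.

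In the cytosol a charged tRNA is carried to the ribosome by eEF1A, and several of the synthetases are held together with scaffold proteins in the multisynthetase complex. Mitochondria translate their own genome and import a separate set of synthetases made from nuclear genes. GARS and KARS each encode both forms from a single gene, and the mitochondrion has no separate glutaminyl enzyme, since it charges that tRNA with glutamate and then amidates it. EPRS joins the glutamyl and prolyl enzymes in a single chain, and FARSA and FARSB are the subunits of the cytosolic phenylalanyl enzyme. Many cytosolic synthetase genes are known targets of ATF4, a transcription factor made when cells lack amino acids or have unfolded protein in the endoplasmic reticulum. ATF4 with a C/EBP partner binds a composite element whose core is often written TGATGNAA, where N is any base.

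The promoter sequences are shown first because part of the cytosolic family shares an element. RefSeq windows of 300 bases (GRCh38.p14, from 250 bases before to 50 bases after the start of each gene) were searched for TGATGNAA on both strands. The element was found in 7 of 16 cytosolic members with a window (43.8%) and in 1 of 14 mitochondrial members (7.14%). A gene with several windows was counted once if any of them matched. By the same count it was found in 257 of 9008 genes tested with a window (2.85%). Of all 35116 single windows, 1270 held it (3.62%). Each line gives 30 bases, 5′ to 3′ on the gene's strand, with the match in capitals. A match reads TTNCATCA where the element lies on the opposite strand.
MARS: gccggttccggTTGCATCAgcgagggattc
IARS: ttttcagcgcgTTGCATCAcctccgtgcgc
AARS: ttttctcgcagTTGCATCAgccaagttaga
CARS: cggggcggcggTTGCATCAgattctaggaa
TARS: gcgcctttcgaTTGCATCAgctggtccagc
NARS: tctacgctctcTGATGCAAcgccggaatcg
GARS: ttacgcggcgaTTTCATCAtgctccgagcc
YARS2: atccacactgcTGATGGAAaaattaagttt

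The first 6 of these carried the same 8 bases on one strand or the other, TGATGCAA, which 0.866% of all windows held. These 30-base stretches lie at chr12:57488053-57488082 on the plus strand for MARS, chr9:92293692-92293721 on the minus strand for IARS and chr16:70289675-70289704 on the minus strand for AARS. They lie at chr11:3057407-3057436 on the minus strand for CARS, chr5:33440956-33440985 on the plus strand for TARS and chr18:57621804-57621833 on the minus strand for NARS. The GARS stretch is at chr7:30594834-30594863 on the plus strand and that of YARS2 at chr12:32756076-32756105 on the minus strand. None of the 13 accessory genes with a window held the element. DARS, LARS, VARS, YARS, AARS2 and VARS2 had no window. A match is a description of the letters and not evidence of binding.

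Library totals ran from 213907 estimated counts (Cre replicate 2) to 8833491 (Flpo replicate 1), and the Flpo libraries were the deepest, each with at least 4989524. A floor of 3 counts corresponded to 11.2 CPM (the count as a rate of the library total, here and below scaled with edgeR's TMM factors) in Cre replicate 2 and to 0.479 in Flpo replicate 3, and these floors cover counting error only. In Cre replicate 2 the median member had 4.5 counts, and 22 of the 36 members had fewer than 10. The HEK293 markers were present, led by VIM at 173 to 892 CPM, although PAX2 had 1 count in all 9 libraries. A protocol mentions livers, and the 7 liver markers summed to at most 5.11 CPM in any library, with FGB at 0. Of the 3 blood markers, CD3E was at 0 and the sum reached at most 1.53 CPM. The 3 fibroblast markers summed to 196 to 745 CPM in the Cas9 group, 438 to 5562 in the Cre group and 199 to 266 in the Flpo group, with COL1A1 and COL1A2 carrying the sum and PDGFRB at 3.73 or less. The part of this marker difference in the results on the synthetases was not tested.

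Levels per kilobase were CPM divided by the median length of a gene's annotated coding transcripts. On this scale the highest member over all 9 libraries was TARS2, the mitochondrial threonyl enzyme, at 61.8 ± 34.3 CPM per kilobase (SD, n = 9). Next were the cytosolic LARS (leucyl, 56.1 ± 18.3), HARS (histidyl, 55.7 ± 15.7), FARSA (51.8 ± 39.8) and MARS (methionyl, 45.7 ± 58.1). These neighbours did not differ beyond their spread. Lowest were LARS2 at 2.06, WARS2 at 1.19 and MARS2 at 0.954 CPM per kilobase, all mitochondrial. The lowest cytosolic member was FARSB at 7.95 CPM per kilobase, far below its partner subunit FARSA. These SDs run over all 3 groups and so include the differences between them. The ranks also depend on the length used, since short annotated transcripts lower the median and raise the level. It was 2175 bases for TARS2, 2975 for LARS, 1842.5 for HARS, 1814 for FARSA and 1399.5 for MARS. Whether these lengths match the transcripts present in the cells was not tested, so the ranks describe this scale only.

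**Figure D1:**
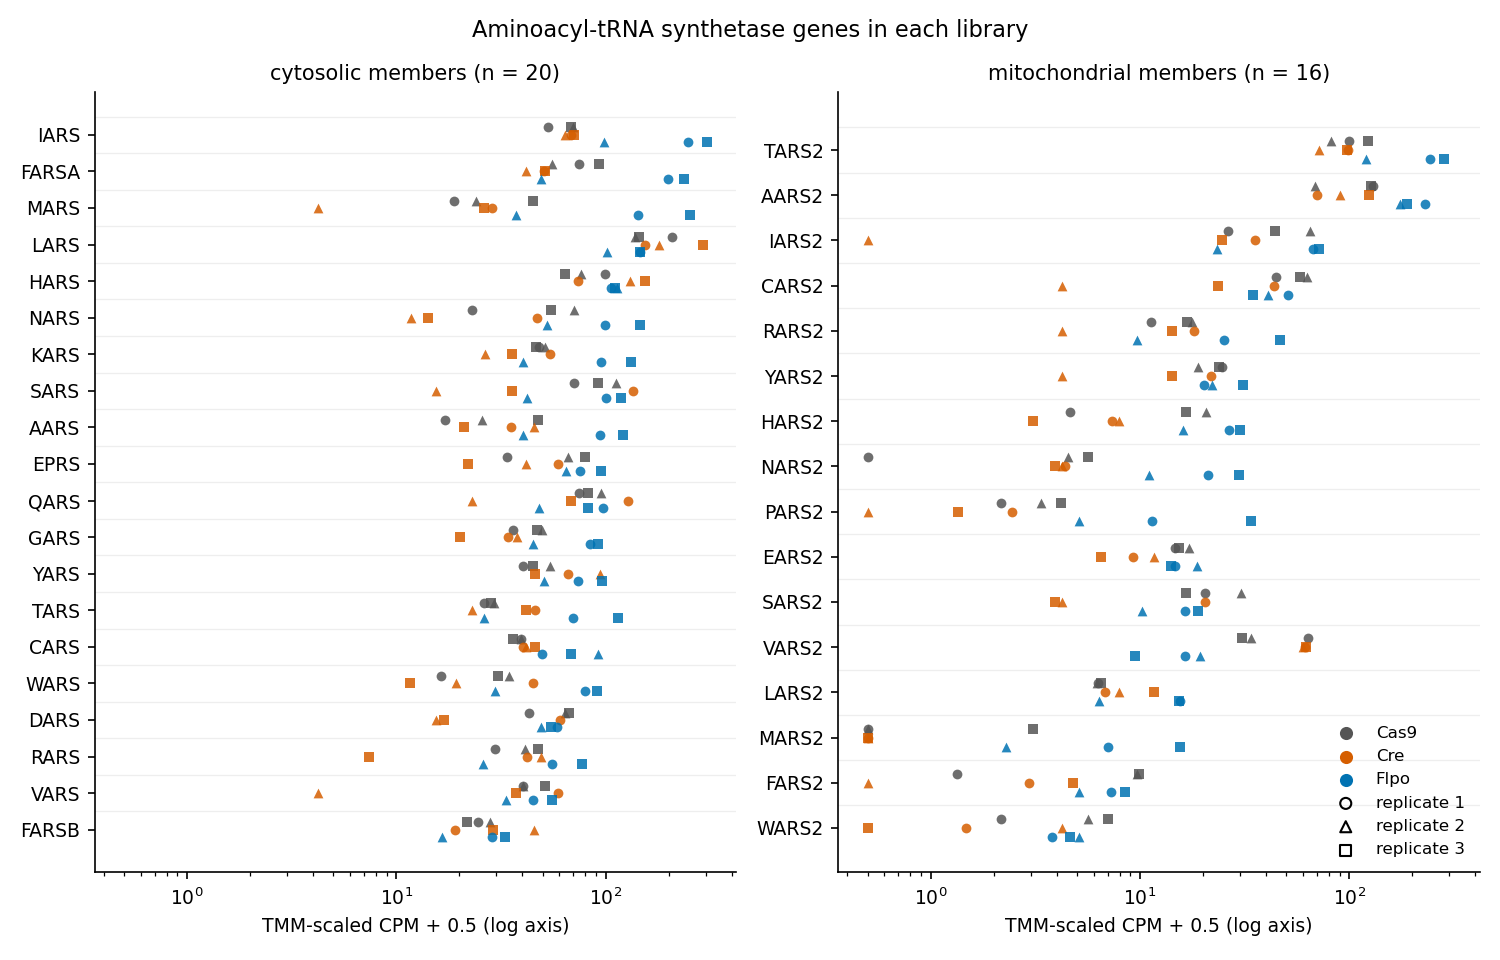
Level of each member in each library as TMM-scaled CPM plus 0.5 on a log axis, with colour for the group and the symbol for the replicate. Flpo replicates 1 and 3 of MARS, IARS and FARSA stand to the right of every Cas9 and Cre library, and VARS2 has its 3 Flpo libraries to the left of all others.

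Cre was then compared with Flpo, which asks whether the recombinase made a difference in cells that all carried Cas9. Relative to the Flpo group, the Cre group had 6.79-fold less MARS, 3.20-fold less IARS (isoleucyl) and 3.37-fold less FARSA, and VARS2, the mitochondrial valyl enzyme, was 4.18-fold higher. These 4 were the members past the threshold among 33 tested (12.1%), against 2440 of 11905 genes (20.5%) in the same test, so the share of members called was below the background. In bulk samples fewer cells of a type and less RNA per cell cannot be told apart. Of all genes tested, 6.17% were higher and 14.3% lower in the Cre group. MARS2, PARS2 and WARS2 were not tested because the filter on low counts removed them. The threshold was an adjusted p of 0.05 from edgeR's quasi-likelihood test with Benjamini-Hochberg adjustment over all genes tested.

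MARS, which charges both initiator and elongator methionyl-tRNA in the cytosol, had 18.3, 23.5 and 44.5 CPM in the Cas9 libraries, 28.3, 3.73 and 25.7 in the Cre libraries and 143, 36.8 and 253 in the Flpo libraries. Flpo replicates 1 and 3 were far above every other library, and Flpo replicate 2 fell within the range of the Cas9 group. The Cre and Flpo groups did not overlap with TMM scaling but did without it. The log2 fold change, Cre over Flpo, was -2.76 (SE 0.75, edgeR adjusted p = 0.0268). Cre replicate 2 rested on 1 count of MARS. The gene lies at chromosome 12, 57475445 to 57517569, plus strand (GENCODE 29, GRCh38), and its exons overlap those of DDIT3 and ARHGAP9 on the opposite strand and of MIR6758. The use of strand in counting is not given in the sources used here, so reads from the shared stretch cannot be told apart. DDIT3, which encodes the stress factor CHOP, had 14.1 to 24.7 CPM in the Cas9 group, 0 to 23.9 in the Cre group and 16.6 to 34.7 in the Flpo group, and did not pass the test for Cre against Flpo (log2 fold change -0.99, edgeR adjusted p = 0.299).

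IARS, an enzyme of the multisynthetase complex, had 52.4, 69.4 and 67.7 CPM in the Cas9 libraries, 67.7, 63.5 and 70.4 in the Cre libraries and 245, 97.1 and 304 in the Flpo libraries. With TMM scaling all 3 Flpo libraries were above the other 6, which lay close together. Without it the Flpo group overlapped the Cre group but not the Cas9 group. The means were 63.2 ± 9.39, 67.2 ± 3.48 and 215 ± 107 CPM (SD, n = 3 each). The log2 fold change, Cre over Flpo, was -1.68 (SE 0.50, edgeR adjusted p = 0.0359). IARS lies at chromosome 9, 92210207 to 92293756, minus strand.

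FARSA, the catalytic subunit of the phenylalanyl enzyme, had 74.0, 55.1 and 91.9 CPM in the Cas9 libraries, 50.2, 41.1 and 50.6 in the Cre libraries and 197, 48.6 and 237 in the Flpo libraries. Flpo replicate 2 lay inside the range of the Cre group, so the groups overlapped although the test passed (log2 fold change -1.75, SE 0.58, edgeR adjusted p = 0.0472). FARSA lies at chromosome 19, 12922479 to 12934037, minus strand, where FARSA-AS1 shares exon sequence on the opposite strand. Its partner FARSB had 24.1, 27.5 and 21.1 CPM in the Cas9 group, 18.5, 44.8 and 28.3 in the Cre group and 28.1, 16.1 and 32.6 in the Flpo group, which overlapped throughout.

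VARS2 had 63.2, 33.3 and 30.3 CPM in the Cas9 libraries, 60.9, 59.7 and 61.8 in the Cre libraries and 15.9, 18.9 and 8.94 in the Flpo libraries. Every Flpo library was below every other library, with TMM scaling and without it. The log2 fold change, Cre over Flpo, was 2.06 (SE 0.52, edgeR adjusted p = 0.0212). VARS2 lies at chromosome 6, 30908242 to 30926459, plus strand, and shares exon sequence with GTF2H4 on the same strand, which had 0 to 15 counts in any library. The cytosolic counterpart VARS did not pass the test, with 39.9, 39.6 and 50.8 CPM in the Cas9 group, 58.5, 3.73 and 36.9 in the Cre group and 44.5, 32.7 and 55.1 in the Flpo group.

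**Figure D2:**
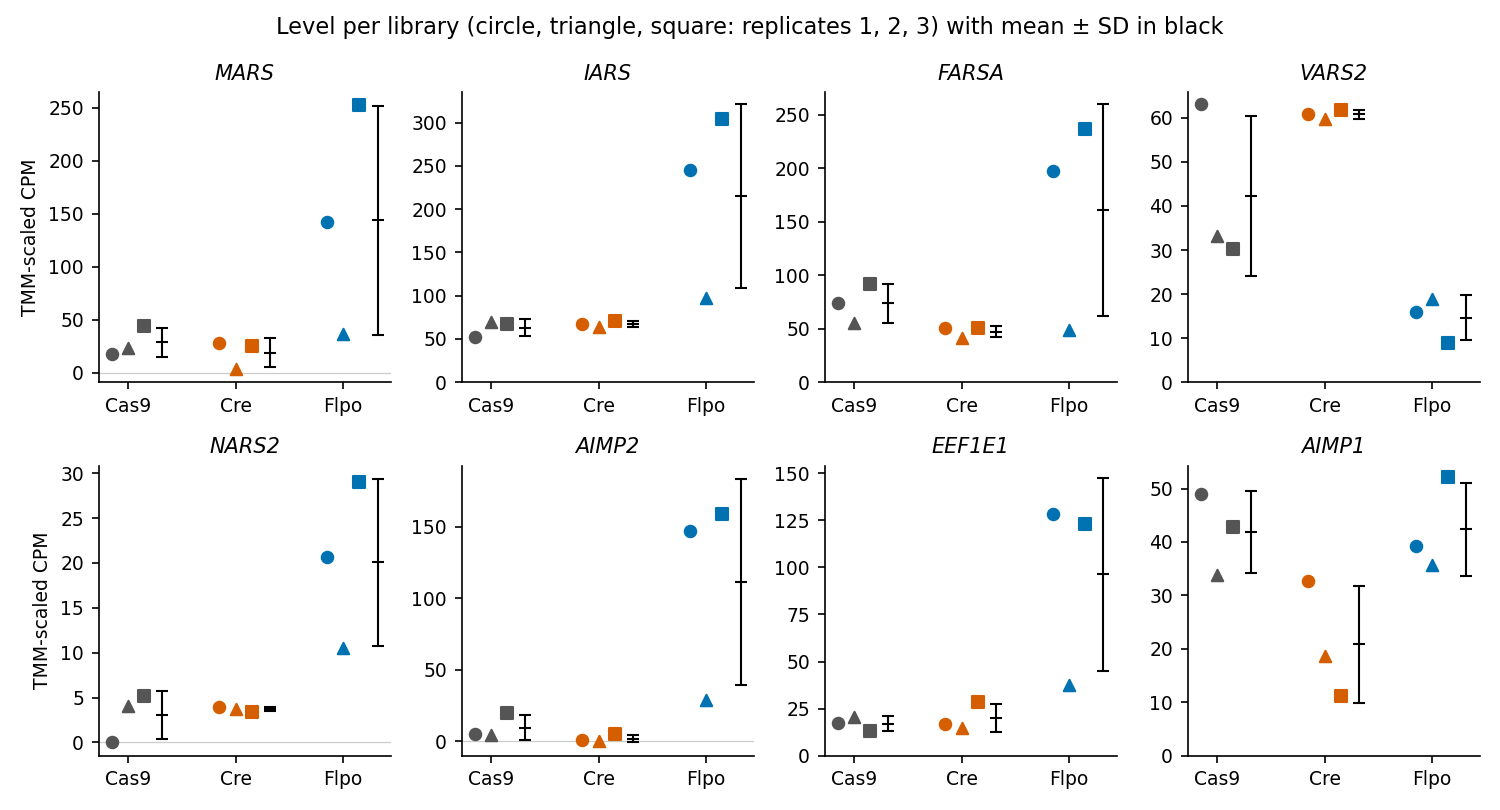
TMM-scaled CPM of 5 members and 3 scaffold genes of the multisynthetase complex in each library, on a linear axis, with the mean ± SD of each group in black (n = 3). Flpo replicate 2, the triangle, lies below Flpo replicates 1 and 3 in every panel except VARS2.

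Several members came close to the threshold from the same side. NARS (asparaginyl) had 22.4, 70.0 and 54.3 CPM in the Cas9 group, 46.3, 11.2 and 13.7 in the Cre group and 98.2, 51.9 and 145 in the Flpo group, with a log2 fold change of -1.95 (SE 0.66, edgeR adjusted p = 0.0507). HARS2, the mitochondrial histidyl enzyme, had a log2 fold change of -2.15 (SE 0.73, edgeR adjusted p = 0.0522), on 14, 2 and 3 counts in the Cre group against 151, 61 and 185 in the Flpo group. Its exons overlap those of HARS on the opposite strand and of ZMAT2 on the same strand. NARS2, the mitochondrial asparaginyl enzyme, gave -2.43 (SE 0.87, edgeR adjusted p = 0.0609). It had 0, 7 and 18 counts in the Cas9 group, 8, 1 and 4 in the Cre group and 120, 41 and 182 in the Flpo group. It met the filter on low counts only through the Flpo libraries, where it was high. None of these 3 passed, and the Cre libraries held at most 14 counts of HARS2 and 8 of NARS2. NARS had 95, 3 and 16 counts there.

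At an unadjusted p under 0.05, 13 of 33 members differed, 12 lower and 1 higher in the Cre group, against 39.8% of all genes tested. The log2 fold change was below 0 for 29 of the 33, and for 26 it was below the median of all genes tested, which was -0.34. The median was -0.83 over the 20 cytosolic members, of which 3 were called and 14 lay below the all-gene median. Over the 13 mitochondrial members tested it was -1.04, with 1 called (VARS2, in the other direction) and 12 below the all-gene median. Groups did not overlap for 14 of the 33 members, 12 lower and 2 higher in the Cre group, against 43.2% of all genes tested (27.9% lower and 15.2% higher). The 2 higher were VARS2 and LARS, and LARS did not pass the test (log2 fold change 0.67, SE 0.47, edgeR adjusted p = 0.291).

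These levels depend on the scaling of the libraries. Without TMM the all-gene median for Cre against Flpo moved from -0.34 to 0.44, and the cytosolic and mitochondrial medians became -0.042 and -0.26. Relative to the all-gene median they were -0.48 and -0.70 without TMM, against -0.49 and -0.71 with it. Other fits moved these relative values across 0. Without a filter the all-gene median was -1.22, which the cytosolic median exceeded by 0.33 and the mitochondrial by 0.021, and with the total count (log2) as a covariate the relative values were -0.29 and 0.21. VARS2 alone stayed past the threshold without TMM (24.2% of all genes tested were called). The number of members whose groups did not overlap became 4, of which 2 were lower and 2 higher, against 43.1% of all genes (28.7% higher and 14.4% lower). DESeq2 called 9 members and 33.4% of all genes, with GARS, NARS, HARS2, NARS2 and TARS2 beside the 4 above. The fit without a filter called 8 members and 14.2% of genes, among them the otherwise untested MARS2 and PARS2 but not IARS.

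**Figure D3:**
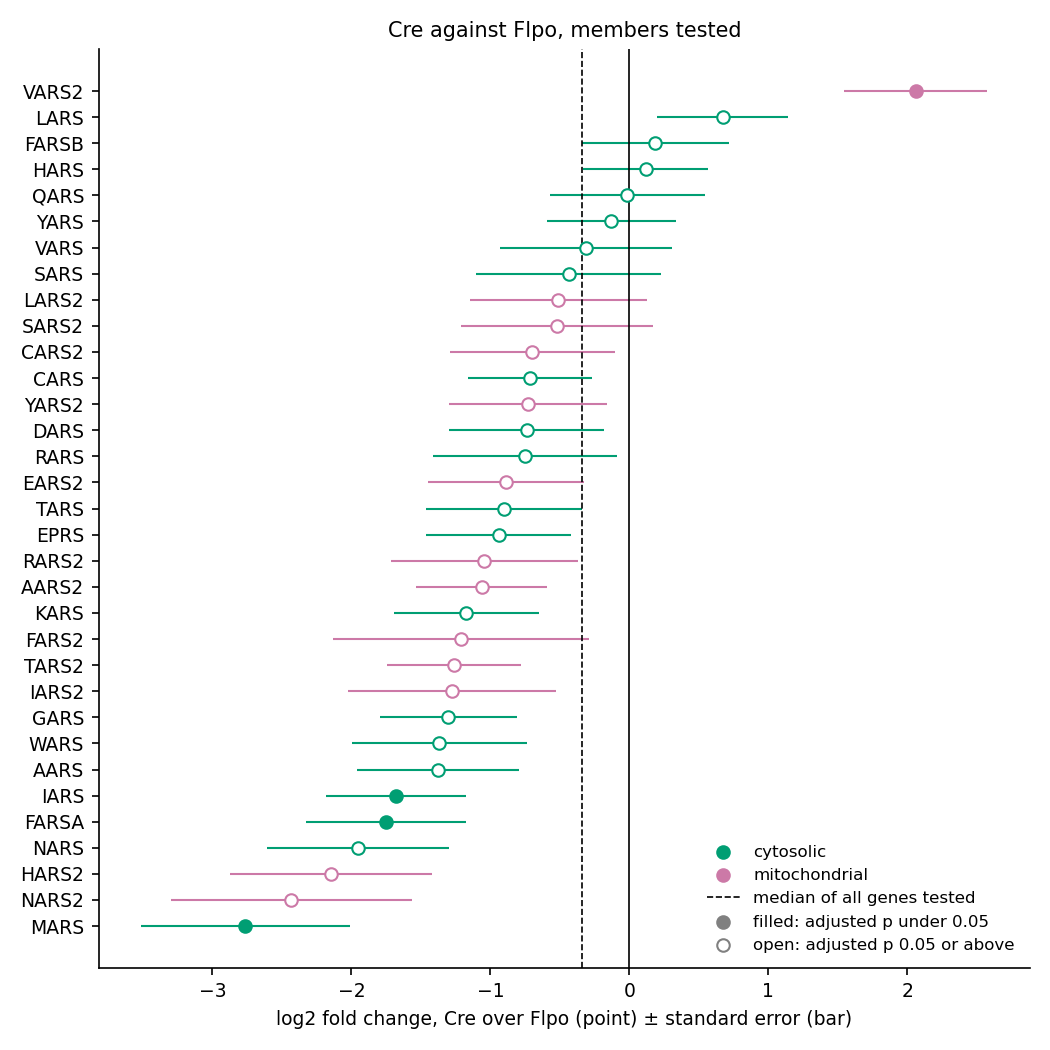
Log2 fold change, Cre over Flpo, of the 33 members tested (points) with the standard error (bars), with colour for cytosolic and mitochondrial members. Filled points passed an adjusted p of 0.05, and the dashed line at -0.34 is the median of all genes tested.

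Within the cytosolic family, the 12 members usually listed as ATF4 targets had a median log2 fold change, Cre over Flpo, of -1.12, with 2 called (MARS and IARS) and 10 below the all-gene median. The other 8 cytosolic members had a median of -0.53, with 1 called (FARSA) and 4 below the all-gene median. With the total count as a covariate this order turned, with medians of 0.051 for the 12 and -0.33 for the other 8, beside 0.19 over all genes. The counts of calls in these subsets stand against the 20.5% of all genes called in the same test. The 8 enzymes of the multisynthetase complex (median -0.84, 2 called) and the 12 outside it (median -0.81, 1 called) were close to each other. Synthetases fall into a pair of unrelated structural classes. The 16 class I members tested had a median of -0.72 with 3 called, and the 16 class II members tested a median of -1.19 with 1 called. EPRS, which holds an enzyme of each class, was counted in neither.

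The 7 cytosolic genes with the TGATGNAA element printed above had a median log2 fold change, Cre over Flpo, of -1.38, ranging from -2.76 (MARS) to -0.71 (CARS), and all 7 lay below the all-gene median. The 9 cytosolic genes whose window held no match had a median of -0.75, ranging from -1.75 to 0.19, with 6 below the all-gene median. For Flpo against Cas9 the medians were 1.35 with the element, where all 7 lay above the all-gene median, and 0.42 without it, where 7 of 9 did. For Cre against Cas9 they were 0.09 and -0.28. All 7 are among the 12 usual ATF4 targets above, so this split is not separate from that one. The order of the 12 and the other 8 turned with the total count as a covariate. Medians of the split by element were not computed in that fit. The 3 comparisons share libraries, and these values are descriptions with no test.

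Flpo was next compared with Cas9 alone. No member passed the threshold, against 27 of 11905 genes (0.227%), of which 26 were higher (0.218%) and 1 lower (0.0084%) in the Flpo group. At an unadjusted p under 0.05 in edgeR, 7 of 33 members differed, 6 higher and 1 lower in the Flpo group, against 20% of all genes tested. DESeq2 called 4 members (IARS, MARS and NARS2 higher, VARS2 lower) and 8.95% of all genes, and the fit without a filter called MARS and NARS2 and 4.6% of genes. The smallest p-values belonged to IARS (log2 fold change 1.77, SE 0.50, edgeR adjusted p = 0.0955), NARS2 (2.58, SE 0.80, adjusted p = 0.113) and MARS (2.31, SE 0.72, adjusted p = 0.115). VARS2 followed with a log2 fold change of -1.53 (SE 0.50, edgeR adjusted p = 0.128). NARS2 met the filter on low counts only through the Flpo libraries, where it was high, so its p-value adds no support.

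The median log2 fold change, Flpo over Cas9, was 0.71 over the cytosolic members and 0.26 over the mitochondrial members tested, beside 0.05 over all genes tested. It was positive for 16 of 20 cytosolic and 9 of 13 mitochondrial members. The 12 usual ATF4 targets had a median of 0.94 and the other 8 cytosolic members one of 0.25. AARS, the alanyl enzyme and one of the 12, had 16.6, 25.2 and 46.8 CPM in the Cas9 group and 93.2, 39.9 and 119.7 in the Flpo group (edgeR adjusted p = 0.171). TARS, the threonyl enzyme, had 25.8, 28.7 and 27.7 CPM in the Cas9 group and 69.4, 25.8 and 114 in the Flpo group (edgeR adjusted p = 0.201). In both genes Flpo replicates 1 and 3 lay above all Cas9 libraries and Flpo replicate 2 within their range. Groups did not overlap for 6 of 33 members, 5 higher and 1 lower in the Flpo group, against 25% of all genes tested (12.8% higher and 12.2% lower). Without TMM the count was 2 higher and 7 lower, against 29.4% of all genes (6.16% higher and 23.2% lower), so that its direction turned with the scaling.

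The 3 Flpo libraries differed among themselves in these genes. Flpo replicate 2 lay below both other Flpo libraries for 18 of 20 cytosolic and 9 of 13 mitochondrial members, against 52.8% of all genes tested. Flpo replicates 1 and 3 were both above every Cas9 and Cre library for 11 of 20 cytosolic and 7 of 13 mitochondrial members, against 30.9% of all genes tested. Flpo replicate 2 was above every Cas9 and Cre library for 2 of 20 and 3 of 13, against 15.7% of all genes tested. Relative to the Cas9 mean, the cytosolic median was 0.58, -0.04 and 1.01 on the log2 scale in Flpo replicates 1, 2 and 3, while the median of all genes was 0.04, -0.03 and 0.03. CARS, the cysteinyl enzyme, ran the other way, at 49.0, 91.5 and 67.5 CPM, with replicate 2 the highest.

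With Flpo replicate 2 left out, 9 of 34 members tested were called for Flpo against Cas9, against 2685 of 12595 genes (21.3%). AARS, FARSA, IARS, MARS, TARS, NARS2, PARS2 and TARS2 were higher in the Flpo group, and VARS2 was lower. NARS2 and PARS2 met the filter on low counts only through the Flpo libraries, where they were high, so their calls add no support. For Cre against Flpo 14 of 34 were then called, 13 lower and 1 higher in the Cre group, against 44.1% of genes. Without Cre replicate 2, Cre replicate 3, Flpo replicate 1 or Flpo replicate 3, no member was called for Cre against Flpo, and for all but the last of these 4 libraries no gene of the table was called either (405 genes without Flpo replicate 3). Without Cas9 replicate 1, Cas9 replicate 2 and Cre replicate 1 the number was 9, 2 and 6, against 24.5%, 10% and 22.7% of all genes tested in those fits. With each library's total count (log2) as a covariate, no member and no gene was called in that comparison, and the log2 fold change of MARS became 0.20. The Flpo libraries were the deepest, so depth and the Flpo group cannot be told apart here.

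**Figure D4:**
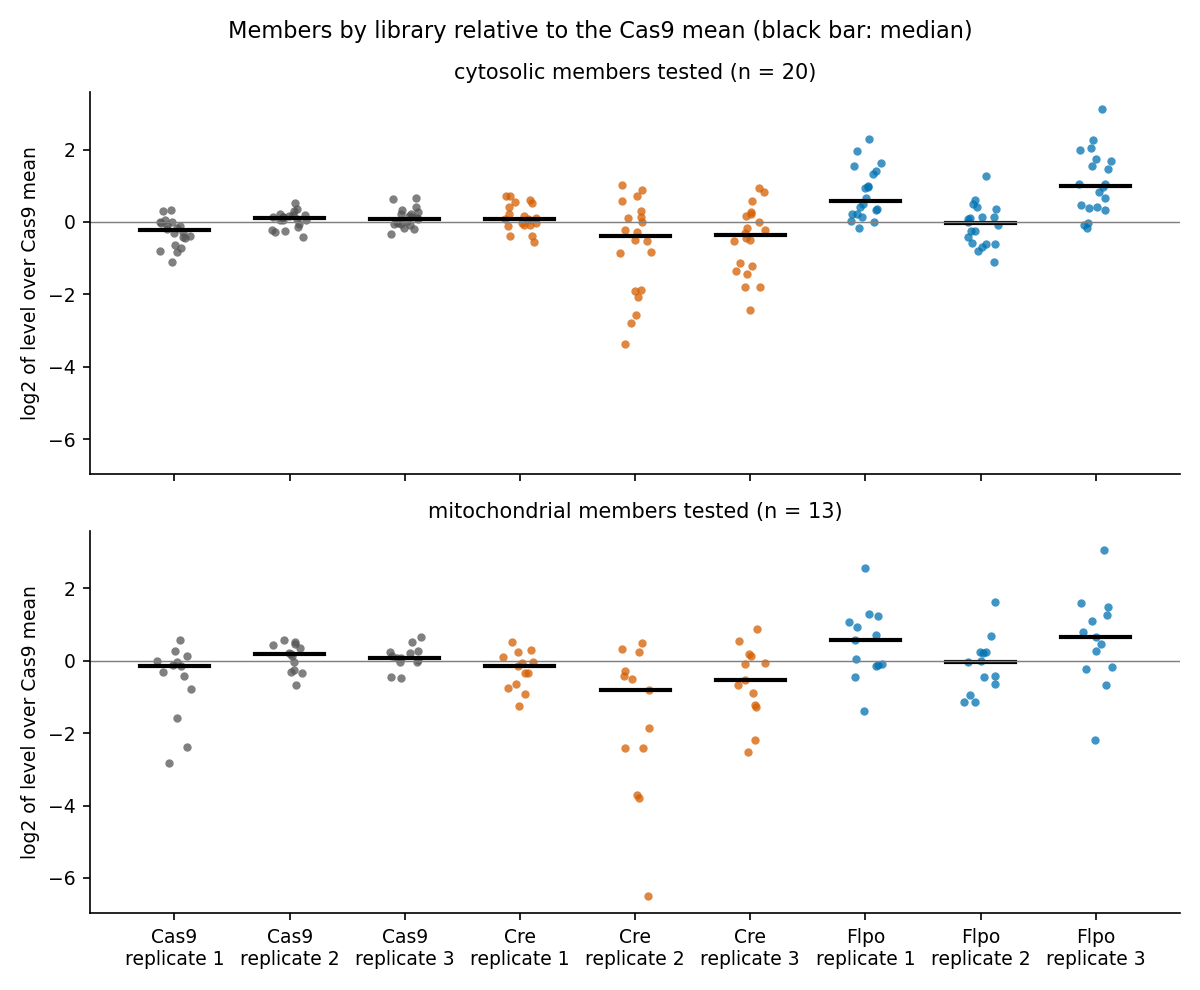
Log2 of the level of each tested member over the mean of the Cas9 group, by library, with the median as a black bar, for cytosolic (top) and mitochondrial (bottom) members. Flpo replicates 1 and 3 have cytosolic medians of 0.58 and 1.01 and Flpo replicate 2 one of -0.04, and Cre replicate 2, the shallowest library, spreads most widely.

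Cre was last compared with Cas9 alone, and no synthetase passed the threshold. None of 11905 genes passed in edgeR (0%), and 879 genes (7.38%) but no member had an unadjusted p under 0.05, while DESeq2 called 4 genes (0.0336%), none of them a member. The smallest p-values belonged to HARS2 (log2 fold change -1.35, SE 0.73, edgeR adjusted p = 0.619), CARS2 (-1.09, SE 0.60, adjusted p = 0.619) and SARS2 (-1.09, SE 0.70, adjusted p = 0.619). All 3 are mitochondrial enzymes. Each shares exon sequence with other genes, HARS2 with HARS and ZMAT2, CARS2 with ING1, and SARS2 with MRPS12 and AC011455.2. CARS2 had 44.0, 62.0 and 57.7 CPM in the Cas9 group and 43.4, 3.73 and 23.2 in the Cre group, of which the second value was 1 count. The median log2 fold change, Cre over Cas9, was -0.22 over cytosolic members and -0.61 over mitochondrial members tested, beside -0.22 over all genes tested. Of the 13 mitochondrial members tested, 7 lay below the all-gene median and 6 above it. Among members with a mean of at least 50 counts the mitochondrial median was -0.32, beside -0.16 over all genes, with 4 of 8 below. Groups did not overlap for 5 members, 2 higher and 3 lower in the Cre group, against 9.83% of all genes tested (3.46% higher and 6.37% lower).

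The cytosolic members summed to 1005, 1154 and 1181 CPM in the Cas9 libraries, 1234, 903 and 1036 in the Cre libraries and 1934, 1045 and 2417 in the Flpo libraries. The mitochondrial members summed to 445, 438 and 501 CPM in the Cas9 libraries, 396, 269 and 389 in the Cre libraries and 767, 481 and 826 in the Flpo libraries. In both sums Flpo replicates 1 and 3 were the 2 highest of the 9 libraries with TMM, but not without it. Without TMM the cytosolic sums were 1216, 1224 and 1099 CPM in the Cas9 group, 1489.6, 1129 and 1353 in the Cre group and 1269, 819.9 and 1795 in the Flpo group, whose mean (1294) was then below that of the Cre group (1324). The mitochondrial sums without TMM were 538, 465 and 467 CPM, 478, 337 and 508, and 503, 377 and 613 in the same order, and the groups overlapped. The ratio of the sums does not depend on scaling between libraries. It was 2.26, 2.63 and 2.35 in the Cas9 group, 3.12, 3.35 and 2.66 in the Cre group and 2.52, 2.17 and 2.93 in the Flpo group, so that the Cre group lay above the Cas9 group without overlap while the Flpo group overlapped both. In Cre replicate 2 the ratio rested on 241 cytosolic and 72 mitochondrial counts. The separation was narrow, with 2.66 in Cre replicate 3 (1206 over 453 counts) against 2.63 in Cas9 replicate 2 (2011 over 764). That gap is smaller than the counting error. LARS and HARS held 338 and 179 of the 1206 counts. No background was computed for this ratio, so the separation is only a description.

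Pairs of enzymes for the same amino acid were compared within each library by their counts. AARS2 and TARS2, the mitochondrial enzymes for alanine and threonine, had more counts than their cytosolic partners in all 9 libraries. The ratio of VARS to VARS2 was 0.631, 1.19 and 1.68 in the Cas9 group, 0.960, 0.0625 and 0.597 in the Cre group and 2.80, 1.73 and 6.16 in the Flpo group. The Flpo libraries were thus above all others for this pair. The ratio of LARS to LARS2 was 35.4, 23.9 and 24 in the Cas9 group, 24.3, 24 and 26 in the Cre group and 9.69, 17.2 and 9.76 in the Flpo group, where every Flpo library was below every other. The value of LARS in Cre replicate 2 was set against 2 counts of LARS2. Some groups were also apart for other pairs. Cre and Flpo lay above Cas9 for CARS to CARS2, and Cre lay above Flpo for HARS to HARS2. Flpo lay above Cas9 for IARS to IARS2 and below it for EPRS to PARS2, and Cre lay above Cas9 for YARS to YARS2. The remaining pairs overlapped wherever the groups could be compared. Other ratios also rested on few counts. In Cre replicate 2, CARS2, YARS2 and VARS had 1 count each and HARS2 had 2, and PARS2 had 2 in Cas9 replicate 1. Some margins were narrow. For CARS to CARS2, 0.921 in Cre replicate 1 stood against 0.887 in Cas9 replicate 1. For YARS to YARS2 it was 3.07 in Cre replicate 1 against 2.91 in Cas9 replicate 2. For VARS to VARS2 it was 1.73 in Flpo replicate 2 against 1.68 in Cas9 replicate 3. No share over other pairs of genes was computed, so these separations have no background.

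Of the 3 scaffold genes of the multisynthetase complex, AIMP2 and EEF1E1 passed the test for Cre against Flpo and AIMP1 did not. AIMP2, a scaffold protein, had 4.99, 4.59 and 19.7 CPM in the Cas9 libraries, 0.974, 0 and 5.15 in the Cre libraries and 147, 28.6 and 159 in the Flpo libraries. It was lower in the Cre than in the Flpo group (log2 fold change -5.51, SE 1.02, edgeR adjusted p = 0.0167), on 2, 0 and 6 counts in the Cre group, so the size of the fitted change depends on the handling of low counts. EEF1E1, known as AIMP3, had 17.5, 20.7 and 12.8 CPM in the Cas9 libraries, 16.6, 14.9 and 28.3 in the Cre libraries and 129, 37.3 and 123 in the Flpo libraries (Cre over Flpo -2.24, SE 0.58, edgeR adjusted p = 0.0236). For both genes every Flpo library was above all other libraries with TMM scaling. Without it this held for AIMP2, while for EEF1E1 the Flpo group overlapped the Cre group. AIMP1, the third scaffold protein, had 49.0, 33.9 and 42.8 CPM in the Cas9 group, 32.6, 18.7 and 11.2 in the Cre group and 39.2, 35.8 and 52.2 in the Flpo group and did not pass (log2 fold change -0.99, edgeR adjusted p = 0.168).

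The accessory list of the pathway held 15 genes, all tested. For Cre against Flpo 4 were called (26.7%), all lower in the Cre group, against 20.5% of all genes called and 14.3% called lower. The list median was -0.79. Beside AIMP2 and EEF1E1 they were EEF1A1, the carrier of charged tRNA to the ribosome (log2 fold change -3.30, SE 0.92, edgeR adjusted p = 0.0289), and TUFM, its mitochondrial counterpart (-2.83, SE 0.82, adjusted p = 0.0318). TUFM had 12.5, 80.3 and 90.8 CPM in the Cas9 group, 50.7, 22.4 and 13.7 in the Cre group and 285, 61.6 and 291 in the Flpo group. EEF1A1 is uncertain because 39 of its pseudogenes are separate rows of the table. Not past the threshold were GATB, a subunit of the mitochondrial amidotransferase (log2 fold change 1.54, edgeR adjusted p = 0.0588), DTD1, which removes D-amino acids from tRNA (-2.27, adjusted p = 0.0608), PTRH2, a peptidyl-tRNA hydrolase (adjusted p = 0.0959), and TRNT1, which adds the CCA end to tRNA (1.27, adjusted p = 0.114). For Flpo against Cas9 none of the 15 passed, and 5 were higher in the Flpo group at an unadjusted p under 0.05 in edgeR. Of all 11905 genes, 2378 (20%) were under that value, 1571 of them higher.

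The untested members were scarce. PARS2, the mitochondrial prolyl enzyme, had 2, 5 and 13 counts in the Cas9 group, 4, 0 and 1 in the Cre group and 63, 18 and 208 in the Flpo group. MARS2 had 0, 0 and 9 counts, then 0 in each Cre library, then 38, 7 and 94 in the Flpo group. WARS2, the mitochondrial tryptophanyl enzyme, had 2, 9 and 23 counts in the Cas9 group, 2, 1 and 0 in the Cre group and 19, 18 and 26 in the Flpo group. At the depth of Cre replicate 2 a level under 11.2 CPM was not distinguishable from 0 for these genes.

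Reads that match several genes are shared out by the estimate behind the counts. The repeated share of a gene is the percentage of its distinct transcript words of 24 bases that also occur in at least 10 other genes, and its median was 0.702% for the members and 1.53% for genes tested. Across genes, which are not independent replicates, the rank correlation of this share with the log2 fold change, Cre over Flpo, was 0.34 for the 33 members and 0.41 for 11867 genes tested. It was 0.56 and 0.53 for Cre over Cas9, and 0.046 and -0.20 for Flpo over Cas9. TARS2 (7.74%), HARS (7.29%) and YARS2 (4.65%) had the highest shares among the members. Among those called for Cre against Flpo, IARS (2.14%) and VARS2 (1.84%) were above both medians and MARS (0.677%) and FARSA (0%) below both. The part of repeated sequence in the results was not tested.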

How the data were processed

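The 9 HEK293 libraries were made with a TruSeq kit, per the labels' protocols. Deposited by the authors were estimated counts per gene symbol. Salmon 0.14.1 and hg38 are named in the submitters' processing notes, and any filter, annotation or use of strand is not given in the sources used here. Every count column was mapped by its name, leaving 0 unmapped. The estimated counts were rounded, and the quasi-likelihood test of edgeR 4.0.16 in R 4.3.3 was run on all 9 libraries with TMM scaling, keeping genes by its default filter (minimum count 10, minimum total 15). Adjusted p-values are Benjamini-Hochberg values over 11905 genes, with a threshold of 0.05. Standard errors are the log2 fold change over the square root of F. The design had been written for counts, and rounding made the same test usable. The edgeR step was tested on simulated data with less spread between replicates than these data (common biological coefficient of variation here 0.556). That test checks the code and not the power at the present spread.

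Genes were matched by symbol to GENCODE 29 (35378 of 35876). Alternatives were DESeq2 1.42.0, no TMM, no filter, a mean of at least 50 counts, only the groups compared, a replicate block, total count as a covariate, and leaving out each library. The members and lists were chosen with earlier results of these data known. Full statistics were given for members past the threshold, or for the 3 smallest p-values where none passed. Other values were chosen after they were seen.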

Additional observations from a re-analysis of the deposited data

Results flagged for a closer look

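The effects of the 2 recombinases, both measured against the same Cas9 libraries, differed for 4 of 33 members (12.1%) by edgeR's test of the difference itself, which is the comparison of Cre with Flpo above. In that test 2440 of 11905 genes (20.5%) were called, so the share of members is below that of all genes. On the log2 scale, the effect of Cre minus that of Flpo was -2.76 for MARS, -1.68 for IARS and -1.75 for FARSA, and 2.06 for VARS2. Adjusted p-values were 0.0268, 0.0359, 0.0472 and 0.0212 in that order (edgeR, Benjamini-Hochberg over all genes tested). No test for single far libraries was made in groups of 3. With single libraries left out, 0 to 14 members were called in that test. None was called without Cre replicate 2, Cre replicate 3, Flpo replicate 1 or Flpo replicate 3. The log2 fold changes of these 4 members kept their sign in all of those fits.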

How the results depend on the processing

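Fewer than 10 counts in Cre replicate 2 for 22 members limit every comparison with the Cre group. For Cre against Cas9, DESeq2 called 4 genes and no filter 51, and the cytosolic median (-0.22) became 0.18 with the total count as a covariate and ran from -0.71 to -0.061 with single libraries left out. For Flpo against Cas9, genes called (27) became 1065 in DESeq2, 12 without TMM, 1169 without a filter, 0 with only the groups compared, 6 with the replicate block, 0 with the covariate and 0 to 2685 with single libraries left out. Members called (0) became 4 in DESeq2, 2 without a filter and 0 to 9 with single libraries left out. The cytosolic median (0.71) became 0.16 without TMM, and the mitochondrial median (0.26) became -0.29 without TMM, -0.53 with the covariate and 0.10 to 0.91 with single libraries left out. Without TMM the all-gene median of Flpo against Cas9 moved from 0.05 to -0.48. Relative to it these medians were 0.64 and 0.19 without TMM, against 0.66 and 0.21 with it. With the covariate the relative values were 0.56 and -0.28. For Cre against Flpo, genes called (2440) became 3976 in DESeq2, 1568 with the replicate block, 0 with the covariate and 0 to 5559 with single libraries left out. Members called (4) became 9 in DESeq2, 1 without TMM, 8 without a filter, 2 with the replicate block (MARS and VARS2), 0 with the covariate and 0 to 14 with single libraries left out. The cytosolic median (-0.83) became -0.042 without TMM, -0.10 with the covariate and -1.43 to -0.72 with single libraries left out, and the mitochondrial median (-1.04) became 0.40 with the covariate. MARS reversed with the covariate, to 0.20 (edgeR adjusted p = 0.992). The cause was not tested in any of these. Same-numbered libraries did not deviate together (mean correlations -0.33, -0.09 and 0.12), so the block carries only a number.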
